A study of Mus musculus with 12 samples.

Results

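Expression of 10 genes for cytokines and colony-stimulating factors outside the interleukin 1 family was examined in cultured mouse keratinocytes. The genes were Il24, Il19, Il6, Il11, Lif, Csf1, Csf2, Csf3, Tslp and Tnf. Each was taken as the array's transcript cluster (the set of probes that reports 1 gene) with that single gene symbol, and all 10 were found, of 19938 genes with such a cluster. The 12 Affymetrix Mouse Gene 1.0 ST arrays held RNA of primary keratinocytes from FVB/N mice in 4 groups of 3. MT-HGF keratinocytes come from mice in which the metallothionein promoter drives an HGF transgene. HGF, hepatocyte growth factor, binds and activates the tyrosine kinase receptor MET. One group was MT-HGF cells after mock transduction and 24 h of AG1478, which inhibits the EGFR kinase, grown in 8% fetal bovine serum. A second group was MT-HGF control cells without AG1478. The third was wild-type cells transduced with v-rasHa, the viral oncogenic form of Hras (RAS cells), and the fourth wild-type control cells, and these last 3 groups grew in regular medium. Their labels share a note of RAS transduction for 3 days and do not say whether the controls were mock transduced. Replicates of these 3 groups are called biological, but no source animal or culture is given for any group. The p-values therefore describe variation among these arrays, some of which may be technical.

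Keratinocytes are a source of cytokines that act on the epidermis itself and on immune cells. IL24 and IL19 belong to the IL20 subfamily, and both signal to epithelial cells through receptors that share the chain IL20RB. IL6, IL11 and LIF signal through the shared receptor chain gp130, which Il6st encodes, to the transcription factor STAT3. CSF1 supports macrophages, CSF2 macrophages, dendritic cells and granulocytes, and CSF3 mainly neutrophils. TSLP is an epithelial cytokine that promotes type 2 inflammation in skin, and TNF is a general inflammatory cytokine that activates NF-kappaB.

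Of the 10 genes, 5 were above the array background in at least 1 group. Il24 was the gene with the largest differences of the 10. It was 11.5-fold higher in RAS cells and 8.01-fold higher in MT-HGF cells than in wild-type cells, and 1.60-fold lower in AG1478-treated than in untreated MT-HGF cells. Tslp was 1.99-fold lower in RAS than in wild-type cells and 1.83-fold lower in AG1478-treated than in untreated MT-HGF cells, while MT-HGF and wild-type cells did not differ in it beyond their spread. Csf1 was lower than in wild-type cells in all 3 other groups, Tnf was higher than in wild-type cells in all 3, and Lif differed by no more than 0.37 log2 units between any groups. Il19, Il6, Il11, Csf2 and Csf3 were not above background on any of the 12 arrays.

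The array medians lay between 6.77 and 6.84 on the log2 scale. Background was taken on each array as the 95th percentile of 159 chemosensory receptor genes, a class mostly silent in skin, and lay between 6.80 and 7.12. Hgf, which checks the transgene label, was at 10.59 to 10.80 on the 6 MT-HGF arrays with and without AG1478, against 4.85 to 5.36 on the 6 RAS and wild-type arrays. All 10 keratinocyte markers were above background in each group. So were all 8 melanocyte markers, and 9 of 12 fibroblast markers. No endothelial marker of 8 was above background on all 3 arrays of any group. Of 16 leukocyte markers 1 (Cd68) was above it in the AG1478-treated MT-HGF, MT-HGF and RAS groups, against 3 in wild type, where Lyz2 and Fcer1g were also above it. Ptprc, the pan-leukocyte marker, was not above background in any group, and 7 of 8 mast cell markers were not.

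**Figure D1:**
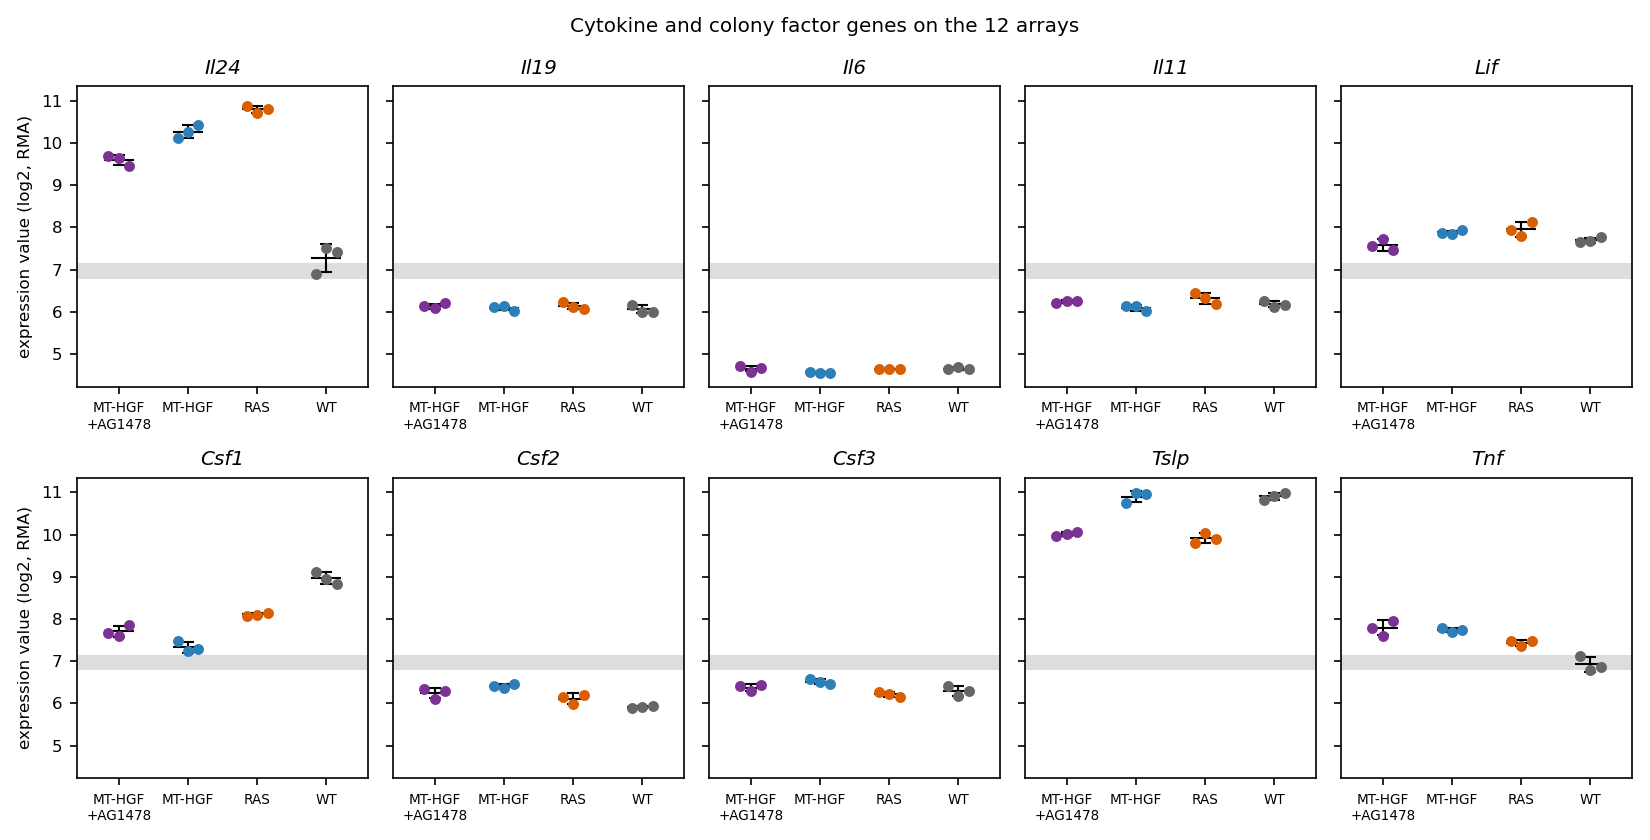
Expression values (log2, RMA) of the 10 genes on the 12 arrays, with AG1478-treated MT-HGF, MT-HGF, RAS and wild-type (WT) cells from left to right. Points are arrays, the horizontal tick and bar are the group mean and SD (n = 3), and the grey band spans the array background of 6.80 to 7.12. Il24, Lif, Csf1, Tslp and Tnf reach above the band, and the other 5 genes lie below it on every array.

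Il24 was at 9.70, 9.64 and 9.46 log2 units in AG1478-treated MT-HGF cells, at 10.12, 10.26 and 10.44 in MT-HGF cells, at 10.88, 10.70 and 10.81 in RAS cells, and at 6.89, 7.51 and 7.42 in wild-type cells. The 4 groups did not overlap. The order was wild type, AG1478-treated MT-HGF, MT-HGF and RAS, and each step between neighbours in it passed the test. RAS cells exceeded wild type by 3.53 ± 0.13 log2 units (SE, n = 3 per group; limma adjusted p = 1.62e-12). MT-HGF cells exceeded wild type by 3.00 ± 0.13 log2 units (limma adjusted p = 1.06e-11). In the direct comparison MT-HGF cells were below RAS cells by 0.52 log2 units, a difference of -0.52 (limma adjusted p = 0.00626).

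With AG1478 the Il24 value was -0.68 ± 0.13 log2 units relative to untreated MT-HGF cells (SE; limma adjusted p = 0.00139). The treated cells were still 2.32 log2 units, or 5.01-fold, above wild type (limma adjusted p = 3.19e-10). These comparisons share arrays, so they are given side by side and are not independent. The wild-type level was close to background, with 2 of 3 arrays above it, so the folds against wild type may be understated. The labels of the AG1478-treated arrays name mock transduction, and those of the untreated MT-HGF arrays do not say whether it was done. Growth and extraction are also described differently in the labels. No vehicle-treated array was analysed here. Hence the inhibitor and any such differences in handling cannot be told apart in any comparison with AG1478. Melanocytes can also express Il24, and the mean log2 value of the 8 melanocyte markers lay at 9.72 to 9.83 on the AG1478-treated MT-HGF arrays, at 9.72 to 9.88 on the MT-HGF arrays, at 10.12 to 10.24 on the RAS arrays and at 9.95 to 10.17 on the wild-type arrays. In MT-HGF against wild-type cells 0 of them were higher and 5 lower, where 40.9% of all genes were called. In RAS against wild-type cells 0 of the 8 were called (limma), against 32.5% of all genes. The part of these markers in the Il24 result was not tested.

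Il19 encodes the other IL20 subfamily cytokine of the set. It reached at most 6.22 log2 units on the 12 arrays, below background on each, and was not called in any of the 6 comparisons. On the chromosome Il24 and Il19 are neighbours in the same cytokine cluster, with Il20 between them and Il10 beyond Il19. Il20 and Il10 did not pass the filter on low values and were not above background in any group. On the other side of Il24 the nearest genes are Fcmr and Pigr, which were likewise not above background in any group. The next gene beyond Il10, Mapkapk2, was above background in every group, at means of 10.26 to 10.59 log2 units. Between Pigr and Il10, Il24 was thus the 1 gene above background, on all 3 arrays of AG1478-treated MT-HGF, MT-HGF and RAS cells and on 2 of 3 arrays of wild type.

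The receptor genes for the IL20 subfamily were measured in the same cells, where Il20ra was not above background in any group. Il22ra1, whose product pairs with IL20RB to bind IL24, was higher than in wild type by 1.36 ± 0.096 log2 units in MT-HGF cells (SE; limma adjusted p = 5.41e-09) and by 0.78 ± 0.096 in RAS cells (limma adjusted p = 6.95e-06). Il20rb was higher in AG1478-treated than in untreated MT-HGF cells by 0.27 log2 units (limma adjusted p = 0.0387), where Il22ra1 was at 0.21 and not called (limma adjusted p = 0.147). The list of IL10 and IL20 family genes outside the set held 12 names, of which 5 were tested. Of these 1 was higher and 1 lower in RAS than in wild-type cells, 2 and 0 in MT-HGF than in wild-type cells, and 1 and 0 in AG1478-treated than in untreated MT-HGF cells. Their median differences were -0.05, -0.05 and 0.10 log2 units, against -0.02, -0.03 and 0.02 over all genes tested. The shares of all genes called were 32.5%, 40.9% and 16.5%.

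Lif, which encodes a cytokine of the gp130 group, was at 7.57, 7.74 and 7.46 log2 units in AG1478-treated MT-HGF cells, at 7.86, 7.85 and 7.93 in MT-HGF cells, at 7.93, 7.79 and 8.14 in RAS cells, and at 7.66, 7.67 and 7.77 in wild-type cells. The treated cells overlapped with wild type and lay below both MT-HGF and RAS cells. AG1478-treated cells were at -0.37 ± 0.087 log2 units against RAS cells (SE; limma adjusted p = 0.0033). Against untreated MT-HGF cells the difference was -0.29 ± 0.087 (limma adjusted p = 0.0295), and this call was lost when any 1 of 5 of the 6 arrays was left out, with adjusted p between 0.0124 and 0.127. RAS cells exceeded wild type by 0.26 ± 0.087 log2 units (limma adjusted p = 0.0332). That call was lost when arrays were centred on their medians, with array quality weights (0.13 log2 units), and when any 1 of 4 of the 6 arrays was left out, and its adjusted p ranged between 0.0115 and 0.168 over 15 alternatives. MT-HGF and wild-type cells differed by 0.18 log2 units (95% interval -0.0026 to 0.37; limma adjusted p = 0.113), without overlap of their arrays, and the difference was called when only these groups were fitted (adjusted p = 0.0363). AG1478-treated cells stood at -0.11 against wild type (limma adjusted p = 0.334), at -0.14 and called with array quality weights (adjusted p = 0.0363).

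Il6 had the lowest values of the set, between 4.55 and 4.71 log2 units, lay below each array's 30th percentile on all 12 arrays, and was the 1 member that the filter on low values left untested. Il11 was between 6.02 and 6.44 log2 units and was called lower in MT-HGF than in RAS cells (limma adjusted p = 0.0313), at 6.13, 6.14 and 6.02 against 6.44, 6.32 and 6.19. Since neither group was above background, no fold is given. The Il11 call was lost when RAS replicate 1 or 2 or any MT-HGF array was left out, and when only MT-HGF and RAS arrays were fitted. Osm, the gp130 cytokine gene next to Lif on the chromosome, was not above background in any group.

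Another gp130 cytokine gene, Clcf1, had the largest differences in the list of related cytokines. It was above wild type by 2.11 ± 0.080 log2 units in RAS cells (SE; limma adjusted p = 2.52e-12) and by 1.76 ± 0.080 in MT-HGF cells (limma adjusted p = 2.20e-11). With AG1478 it was at -0.84 against untreated MT-HGF cells (limma adjusted p = 1.66e-06). Of 7 tested genes in that list 2 were higher and 0 lower in RAS than in wild-type cells. The same counts held for MT-HGF against wild-type cells, and 0 were higher and 2 lower in AG1478-treated than in untreated MT-HGF cells. The second gene in each case was Il34, which stands in the list although its product is a ligand of the CSF1 receptor and not of gp130. Of all genes, 32.5%, 40.9% and 16.5% were called in these comparisons.

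Genes of the gp130 receptors moved in both directions. Of 5 tested, 2 were higher and 3 lower in RAS than in wild-type cells, 1 and 2 in MT-HGF than in wild-type cells, and 2 and 0 in AG1478-treated than in untreated MT-HGF cells. Their median differences were -0.32, -0.12 and 0.08 log2 units. Lifr, among the lower genes in the first 2 of these comparisons, was not above background in any group. Over all genes limma called 32.5%, 40.9% and 16.5% in the 3 comparisons. Il6st was lower than in wild type by a difference of -0.58 ± 0.080 log2 units in MT-HGF cells (SE; limma adjusted p = 1.74e-05), and AG1478-treated cells were above untreated MT-HGF cells by 0.56 ± 0.080 (limma adjusted p = 0.000108). Il6ra, for the IL6-binding chain, was 0.51 log2 units higher with AG1478 than without it (limma adjusted p = 5.45e-05). Osmr, for the oncostatin M receptor, was 0.41 higher in RAS than in wild-type cells (limma adjusted p = 0.00596).

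Downstream of these receptors, 4 of 13 tested JAK, STAT and SOCS genes (with the targets Pim1 and Bcl3) were higher and 3 lower in RAS than in wild-type cells, with a median of -0.05 log2 units. The counts were 3 and 2 in MT-HGF against wild-type cells (median -0.03) and 4 and 1 in AG1478-treated against untreated MT-HGF cells (median 0.10). The shares of all genes called were 32.5%, 40.9% and 16.5% in this order of comparisons. Pim1, a kinase gene induced by STAT factors, was 1.74 log2 units higher in RAS cells and 1.65 higher in MT-HGF cells than in wild type (limma adjusted p = 2.70e-10 and 4.08e-10). Socs3, the feedback inhibitor of gp130 signalling, was 0.75 log2 units higher in MT-HGF than in wild-type cells (limma adjusted p = 1.02e-07) and 0.38 higher in RAS than in wild-type cells (limma adjusted p = 0.000286). Stat3 itself was at -0.43 in RAS against wild-type cells (limma adjusted p = 1.98e-05) and at 0.50 in AG1478-treated against untreated MT-HGF cells (limma adjusted p = 1.27e-05).

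**Figure D2:**
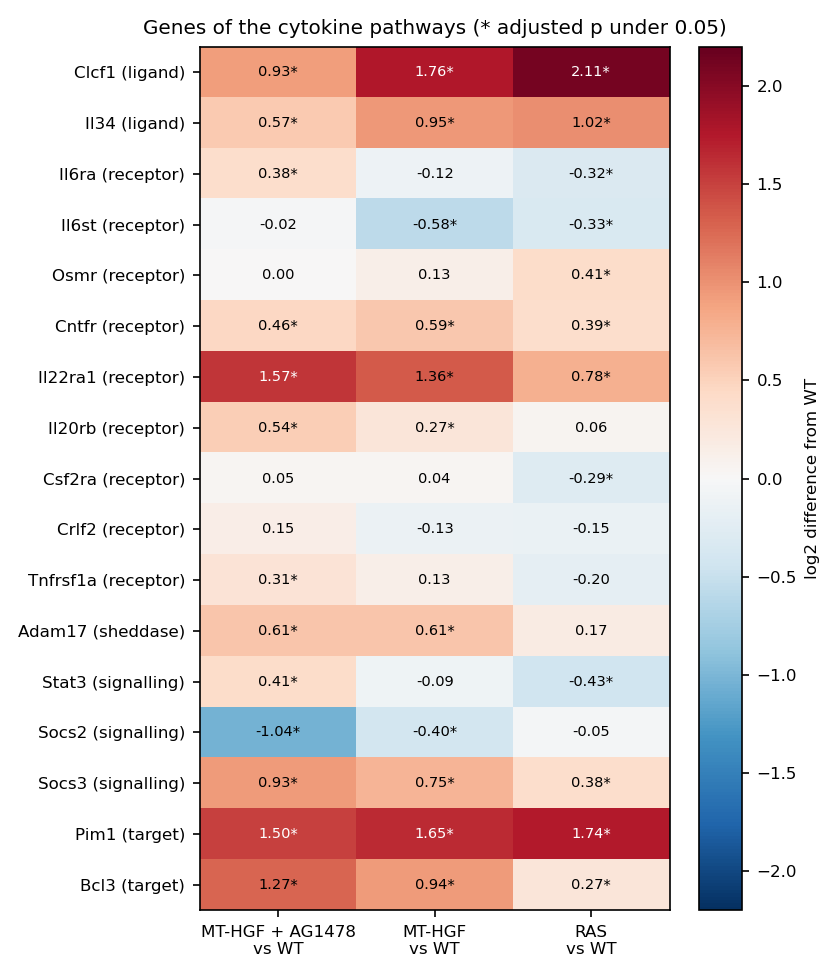
Log2 difference from wild-type cells for 17 genes chosen from the lists of ligands, receptors, signalling genes and targets, in AG1478-treated MT-HGF, MT-HGF and RAS cells from left to right. The colour and the number in a cell give the difference of group means (n = 3 arrays per group), and an asterisk marks a limma adjusted p under 0.05. Clcf1 and Pim1 were higher than in wild type in all 3 groups, and Stat3 was lower in RAS cells (-0.43) and higher in AG1478-treated cells (0.41). Wild-type Il34 and AG1478-treated Socs2 were not above background, so their differences are given before any bound.

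Csf1, the macrophage colony-stimulating factor gene, was at 7.68, 7.60 and 7.85 log2 units in AG1478-treated MT-HGF cells, at 7.48, 7.23 and 7.29 in MT-HGF cells, at 8.08, 8.10 and 8.14 in RAS cells, and at 9.12, 8.95 and 8.83 in wild-type cells. No 2 groups overlapped, and the order was MT-HGF, AG1478-treated MT-HGF, RAS and wild type, with every step called. MT-HGF cells were 3.11-fold below wild type, a difference of -1.64 ± 0.087 log2 units (SE, n = 3 per group; limma adjusted p = 1.54e-10). RAS cells were 1.81-fold below wild type (-0.86 ± 0.087; limma adjusted p = 7.12e-07). MT-HGF cells were lower than RAS cells by a difference of -0.78 (limma adjusted p = 6.23e-06).

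AG1478-treated cells exceeded untreated MT-HGF cells in Csf1 by 0.38 ± 0.087 log2 units (SE; limma adjusted p = 0.00595) and remained below wild type at -1.26 (limma adjusted p = 5.16e-09). Csf1 is also made by fibroblasts, whose marker genes differed between the groups. The mean log2 value of the 12 fibroblast markers lay at 8.07 to 8.15 on the AG1478-treated MT-HGF arrays, at 8.04 to 8.13 on the MT-HGF arrays, at 7.68 to 7.71 on the RAS arrays and at 8.18 to 8.24 on the wild-type arrays. Lum, Mfap5 and Fap were not above background in any group. Of 11 tested, 0 were higher and 5 lower in RAS than in wild-type cells, 4 and 7 in MT-HGF than in wild-type cells, and 0 and 1 in AG1478-treated than in untreated MT-HGF cells. Over all genes 32.5%, 40.9% and 16.5% were called there. In AG1478-treated MT-HGF against wild-type cells 4 of the 11 were higher and 6 lower, with 42.9% of all genes called. Median differences of the 11 from wild type were -0.23 log2 units in RAS, -0.69 in MT-HGF and -0.52 in AG1478-treated MT-HGF cells. Those over all genes were -0.02, -0.03 and 0.0036. The part of these markers in the Csf1 result was not tested. In bulk RNA, fewer cells of a type and less RNA per cell cannot be told apart.

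Csf2, for the granulocyte-macrophage factor, was at 6.35, 6.10 and 6.29 log2 units in AG1478-treated MT-HGF cells, at 6.40, 6.36 and 6.45 in MT-HGF cells, at 6.15, 5.98 and 6.21 in RAS cells, and at 5.88, 5.90 and 5.93 in wild-type cells. The 3 wild-type arrays had the lowest values of the 12. It was called higher than in wild type in MT-HGF cells (limma adjusted p = 5.23e-05), in AG1478-treated cells (limma adjusted p = 0.00169) and in RAS cells (limma adjusted p = 0.0463), and higher in MT-HGF than in RAS cells (limma adjusted p = 0.0102). The call in RAS against wild-type cells was lost with median-centred or quantile-normalized arrays and when only these groups were fitted. It was also lost when any wild-type array or RAS replicate 1 was left out. All Csf2 values lay below background, so no fold is given. Csf3, for the granulocyte factor, was highest in MT-HGF cells, at 6.58, 6.51 and 6.46 log2 units, against 6.41, 6.29 and 6.43 in AG1478-treated MT-HGF cells, 6.27, 6.23 and 6.14 in RAS cells and 6.40, 6.17 and 6.29 in wild-type cells. It was called higher in MT-HGF than in RAS cells (limma adjusted p = 0.00515) and than in wild-type cells (limma adjusted p = 0.0168), again below background. When all 1241 chemosensory genes of the array set the background instead, which placed it at 6.09 to 6.33, Csf2 and Csf3 were above it on all 3 arrays of at least 1 group.

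Of 5 receptor genes of the colony factors, Csf2ra alone was above background on all 3 arrays of any group, and it was so in each. All 5 were tested, and 1 was higher and 1 lower in RAS than in wild-type cells, 0 and 1 in MT-HGF than in wild-type cells, and 1 and 0 in AG1478-treated than in untreated MT-HGF cells. Of all genes, 32.5%, 40.9% and 16.5% were called there. Csf2ra was at -0.29 log2 units in RAS against wild-type cells (limma adjusted p = 0.00488) and at 0.32 in MT-HGF against RAS cells (limma adjusted p = 0.00288). Csf1r, the receptor gene for CSF1 and IL34, was not above background in any group. Il34, the other ligand gene of that receptor, was at least 0.93 log2 units higher in RAS and at least 0.86 higher in MT-HGF than in wild-type cells, where it was not above background (limma adjusted p = 1.73e-08 and 3.08e-08). Csf1 was lower in both comparisons.

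Tslp was at 9.98, 10.01 and 10.07 log2 units in AG1478-treated MT-HGF cells, at 10.74, 10.99 and 10.96 in MT-HGF cells, at 9.81, 10.05 and 9.89 in RAS cells, and at 10.81, 10.92 and 10.99 in wild-type cells. The 12 arrays thus formed a lower set of treated and RAS cells and a higher set of MT-HGF and wild-type cells, with no overlap between the sets and overlap within each. RAS cells were below wild type by a difference of -0.99 ± 0.081 log2 units (SE, n = 3 per group; limma adjusted p = 5.06e-08). MT-HGF and wild-type cells differed by -0.0098 log2 units (95% interval -0.18 to 0.16; limma adjusted p = 0.949), and MT-HGF cells were 0.98 ± 0.081 above RAS cells (limma adjusted p = 2.29e-07).

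AG1478-treated cells were below untreated MT-HGF cells in Tslp by a difference of -0.88 ± 0.081 log2 units (SE; limma adjusted p = 1.19e-06). They were also below wild type, at -0.89 (limma adjusted p = 1.71e-07). Against RAS cells they stood at 0.11 log2 units (95% interval -0.065 to 0.28; limma adjusted p = 0.341). Crlf2, which encodes the TSLP-binding receptor chain, was 0.27 log2 units higher in AG1478-treated than in untreated MT-HGF cells (limma adjusted p = 0.0294). It was at -0.15 in RAS and at -0.13 in MT-HGF against wild-type cells, neither called. It was the 1 tested gene of 4 in its list. Il7r, for the second chain of the TSLP receptor, did not pass the filter on low values and was not above background in any group.

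Tnf was at 7.80, 7.61 and 7.96 log2 units in AG1478-treated MT-HGF cells, at 7.79, 7.70 and 7.75 in MT-HGF cells, at 7.49, 7.35 and 7.47 in RAS cells, and at 7.12, 6.78 and 6.87 in wild-type cells. The MT-HGF arrays with and without AG1478 overlapped, and both groups lay above RAS cells, which lay above wild type. MT-HGF cells were 1.77-fold above wild type (0.82 ± 0.094 log2 units; SE, n = 3 per group; limma adjusted p = 2.21e-06). RAS cells were 1.43-fold above wild type (0.51 ± 0.094; limma adjusted p = 0.000452). Only 1 of 3 wild-type arrays was above background, so these folds may be understated.

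MT-HGF cells exceeded RAS cells in Tnf by 0.31 ± 0.094 log2 units (SE; limma adjusted p = 0.0228). This call was lost when RAS replicate 2, MT-HGF replicate 1 or MT-HGF replicate 3 was left out, with adjusted p between 0.0339 and 0.0984 over the 6 arrays left out. AG1478-treated and untreated MT-HGF cells differed by 0.040 log2 units (95% interval -0.16 to 0.24; limma adjusted p = 0.81). Treated cells were 0.86 above wild type (limma adjusted p = 1.39e-06). The neighbours of Tnf on the chromosome, the lymphotoxin genes Lta and Ltb, were not above background in any group. Leukocytes are a major source of TNF, and the mean log2 value of the 16 leukocyte markers lay at 6.20 to 6.33 on the AG1478-treated MT-HGF arrays, at 6.17 to 6.26 on the MT-HGF arrays, at 6.19 to 6.33 on the RAS arrays and at 6.30 to 6.51 on the wild-type arrays. Cd68, a macrophage marker and the 1 leukocyte gene above background in every group, averaged 10.08 log2 units in AG1478-treated MT-HGF, 10.24 in MT-HGF and 10.25 in RAS cells, against 8.96 in wild-type cells. Like Tnf it was called higher than in wild type in all 3 (limma adjusted p = 5.37e-07, 9.26e-08 and 1.22e-07). Lyz2 was called lower than in wild type in the same 3 groups, where it was not above background. Its bounds there were -0.63, -0.78 and -0.71 log2 units (limma adjusted p = 8.29e-08, 2.26e-07 and 2.77e-06). Tyrobp, not above background in any group, was also called lower in all 3. Of 10 leukocyte markers tested, 1 was higher and 4 lower than in wild type in AG1478-treated MT-HGF cells, 2 and 5 in MT-HGF cells, and 2 and 4 in RAS cells. Over all genes 42.9%, 40.9% and 32.5% were called against wild type in the same order. Ptprc, Cd3e, Itgam and Adgre1 were not above background in any group. The part of these markers in the Tnf result was not tested.

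Among 8 tested genes of TNF receptors, adaptors and processing, 0 were called in RAS against wild-type cells (limma), and the median difference was -0.09 log2 units. In MT-HGF against wild-type cells 1 was higher and 1 lower (median 0.13), and in MT-HGF against RAS cells 5 were higher and 0 lower (median 0.23). Over all genes 32.5%, 40.9% and 26.0% were called in these comparisons, the last with 13.4% higher and 12.6% lower. Adam17, which encodes the protease that releases TNF from the cell surface, was 0.61 ± 0.082 log2 units higher in MT-HGF than in wild-type cells (SE; limma adjusted p = 1.16e-05). Tnfrsf1a, for the widely expressed TNF receptor, was 0.33 higher in MT-HGF than in RAS cells (limma adjusted p = 0.00408). In AG1478-treated against untreated MT-HGF cells 0 of the 8 were called, against 16.5% of all genes.

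**Figure D3:**
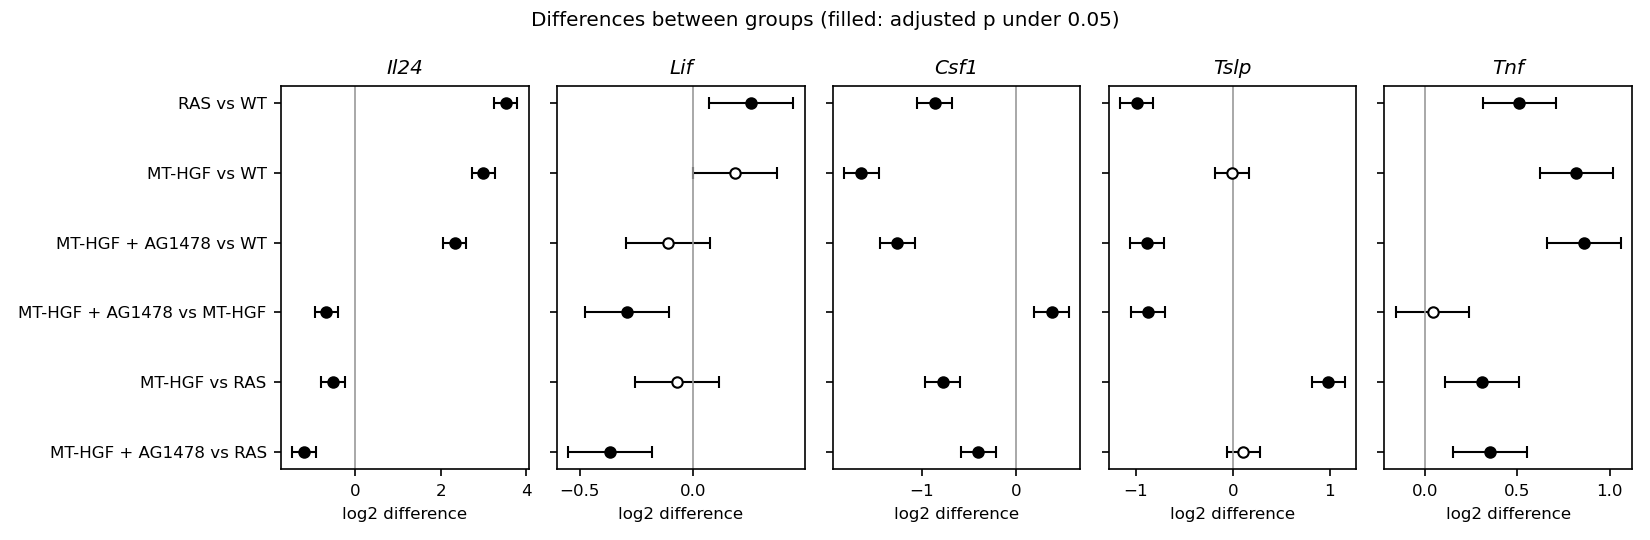
Log2 difference between the groups named on the left (first minus second) for the 5 genes above background, with 95% intervals of limma's fit (n = 3 arrays per group, scale differing between panels). Filled points have an adjusted p under 0.05. Tslp was lower in RAS than in wild-type cells (-0.99) and in AG1478-treated than in untreated MT-HGF cells (-0.88), and its interval for MT-HGF against wild type spans 0.

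Counted over all 10 genes, of which 9 were tested, 4 were called higher (Il24, Lif, Csf2 and Tnf) and 2 lower (Csf1 and Tslp) in RAS than in wild-type cells. Over all genes limma called 32.5% there, 12.6% higher and 19.9% lower. The arrays of both groups did not overlap for 6 of the 10 genes, against 42.9% of all genes. In MT-HGF against wild-type cells 4 were higher (Il24, Csf2, Csf3 and Tnf) and 1 lower (Csf1), with 40.9% of all genes called, 17.1% higher and 23.9% lower. Without overlap were 7, among them the untested Il6, against 50.4% of all genes tested.

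In AG1478-treated against untreated MT-HGF cells 1 gene was higher (Csf1) and 3 were lower (Il24, Lif and Tslp), where 16.5% of all genes were called, 6.57% higher and 9.91% lower. The groups did not overlap for 8 genes, against 34.2% of all genes tested. Among these 8 are the untested Il6 and also Il11, Csf2 and Csf3, all below background on every array. In AG1478-treated MT-HGF against wild-type cells 3 were higher (Il24, Csf2 and Tnf) and 2 lower (Csf1 and Tslp), with 42.9% of all genes called, 16.8% higher and 26.2% lower, and 5 did not overlap, against 50.5% of all genes. Against RAS cells the AG1478-treated cells had 1 gene higher (Tnf) and 3 lower (Il24, Lif and Csf1), with 36.7% of all genes called, 16.3% higher and 20.4% lower, and 5 did not overlap, against 45.8%. In MT-HGF against RAS cells 4 were higher (Csf2, Csf3, Tslp and Tnf) and 3 lower (Il24, Il11 and Csf1), with 26.0% of all genes called, 13.4% higher and 12.6% lower, and 8 did not overlap, against 39.2%. The same 4 genes below background are among the 8 of this last comparison. Calls in both directions occurred among the 10 genes in every comparison.

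Promoter sequences (RefSeq, GRCm38.p6) were at hand for 7 of the 10 genes. Those of Csf1, Tnf and Lif are shown, because these 3 of the 7 were above background, and Csf1 and Tnf went opposite ways against wild type. Each is the 250 bases before the annotated start, 5′ to 3′ on the gene's strand, with capitals marking matches on either strand to 5 motifs.
Csf1: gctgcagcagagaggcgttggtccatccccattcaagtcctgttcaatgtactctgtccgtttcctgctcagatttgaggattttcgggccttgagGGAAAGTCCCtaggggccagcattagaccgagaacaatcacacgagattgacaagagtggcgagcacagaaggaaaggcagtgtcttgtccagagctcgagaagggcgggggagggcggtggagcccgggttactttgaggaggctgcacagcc
Tnf: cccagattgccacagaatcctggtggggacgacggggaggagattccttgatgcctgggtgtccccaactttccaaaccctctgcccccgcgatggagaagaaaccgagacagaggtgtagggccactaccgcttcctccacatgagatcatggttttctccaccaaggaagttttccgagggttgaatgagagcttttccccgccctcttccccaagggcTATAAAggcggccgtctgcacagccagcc
Lif: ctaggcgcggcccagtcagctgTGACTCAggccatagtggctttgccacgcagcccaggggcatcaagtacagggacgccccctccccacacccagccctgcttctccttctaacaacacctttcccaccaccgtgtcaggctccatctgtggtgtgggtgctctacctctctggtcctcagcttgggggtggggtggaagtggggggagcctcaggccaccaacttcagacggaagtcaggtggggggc
The Csf1 window is chr3:107760470-107760719 on the minus strand, the Tnf window chr17:35202008-35202257 on the minus strand and the Lif window chr11:4257318-4257567 on the plus strand.

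The motifs searched were TGANTCA for AP-1, TTCNNNGAA for STAT factors, a motif of 10 bases for NF-kappaB, TTGCNNAA for C/EBP and TATAAA for the TATA box. The Csf1 window held 1 match, to NF-kappaB, at 154 to 145 bases before the start, and 0.356% of 32851 mouse promoter windows of this length hold one. Tnf had 1 match, to the TATA box at 29 to 24 bases before the start, a motif present in 12.4% of windows. In Lif 1 match to AP-1 lay at 228 to 222 bases before the start, as in 6.75% of windows. No matches overlapped. Of the genes below background, Il6 had an AP-1, a C/EBP and an NF-kappaB match, Csf2 a C/EBP match, Il19 a STAT match and Il11 an AP-1 match before the second of its annotated starts, with shares of 9.56% for C/EBP and 7.02% for STAT. A match describes these letters only.

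The genes whose pattern over the 12 arrays was most like that of Il24 were Tmprss11f, Ppbp and Acp7. After each gene was centred on its own mean, their values differed from those of Il24 by a root mean square of 0.20, 0.22 and 0.23 log2 units, where Il24 itself varied around its mean by 1.36. Ppbp, for example, averaged 10.65 log2 units in AG1478-treated MT-HGF, 11.35 in MT-HGF, 11.86 in RAS and 7.95 in wild-type cells. Most like Csf1 were Fat4, Setbp1 and Scamp5, at 0.14, 0.15 and 0.17 log2 units, where Csf1 varied by 0.61. Setbp1 averaged 7.19 in AG1478-treated MT-HGF, 6.84 in MT-HGF, 7.41 in RAS and 8.30 in wild-type cells. Some of these genes reached the background of 6.80 to 7.12 or fell below it. They were Setbp1 in MT-HGF cells, Fat4 in AG1478-treated (6.87) and untreated (6.76) MT-HGF cells, and Acp7 in wild-type cells (5.90). The other members did not meet the rule for this search, which asked for a called difference of at least 1 log2 unit.

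**Figure D4:**
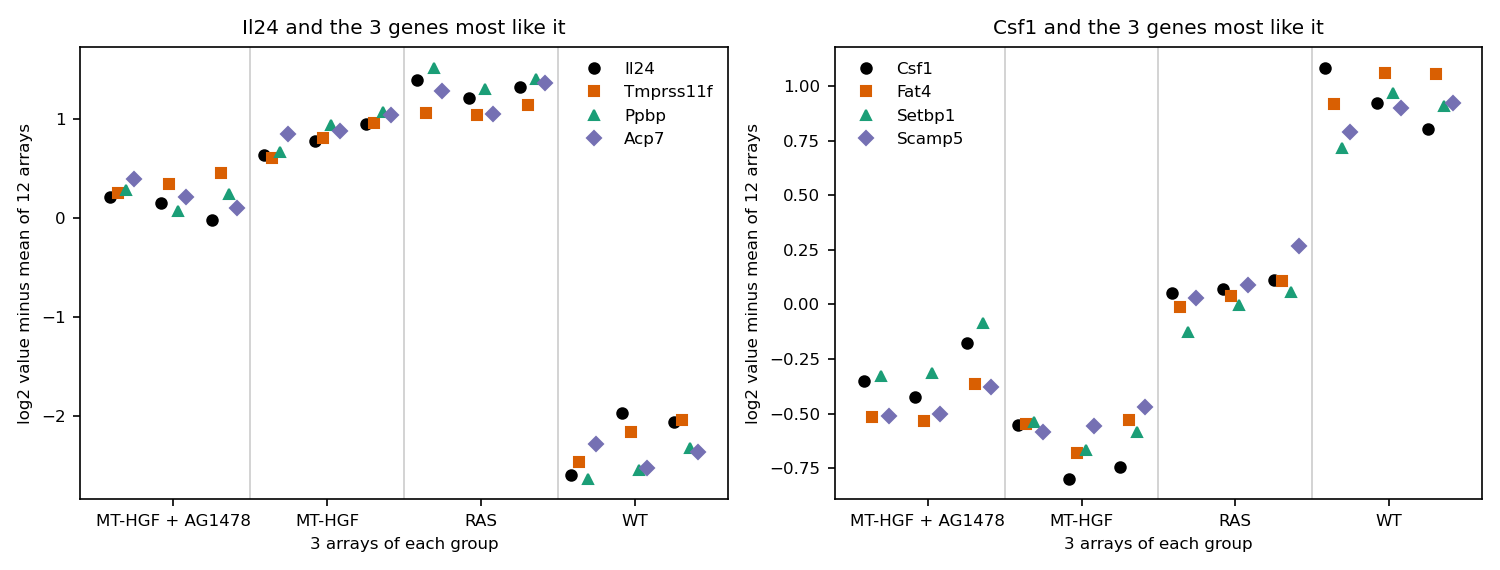
Log2 value minus the gene's mean over the 12 arrays for Il24 (left panel) and Csf1 (right panel) and the 3 genes with the smallest root mean square difference from each. Every point is 1 array, 3 for each of AG1478-treated MT-HGF, MT-HGF, RAS and wild-type cells. The Il24 set is lowest in wild-type cells and the Csf1 set highest there.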

How the data were processed

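The analysis started from the deposited table of log2 expression values, which the authors made with RMA, per the submitters' processing notes. RMA corrects background, normalizes between arrays and summarises the probes of a transcript cluster. The sources used here give no RMA version. Platform annotation gave 21789 of 35511 clusters a single gene symbol. Genes above the 30th percentile of an array on 3 or more of the 12 arrays were tested, each by its cluster of highest mean, which left 15868 genes. The group-means model over all 12 arrays was fitted with limma 3.58.1 in R 4.3.3 (8 residual and 8.02 prior degrees of freedom). P-values are two-sided and adjusted by Benjamini-Hochberg over the 15868 genes, with calls under 0.05. Arrays have no read depth, and 3 per group limit the precision. The fit was tested on simulated data.

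A gene counted as above background in a group if it exceeded the chemosensory percentile on all 3 arrays. A bound sets the higher mean against that percentile where no array of the lower group exceeded it. All 10 members are named in every comparison, and of the lists the called genes with the largest differences. Members, lists and tests were chosen with earlier results of these data known. The 9 pathway and 6 marker lists hold the names of textbook genes. Alternatives concerned the filter, scaling, variance model, samples in the fit, the replicate number as a block, the cluster of a gene, left-out arrays and the background.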

Additional observations from a re-analysis of the deposited data

How the results depend on the processing

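Of the 24 called differences of genes above background, 21 were called under each of their 15 alternatives; the exceptions are Lif in RAS against wild-type and in AG1478-treated against untreated MT-HGF cells, and Tnf in MT-HGF against RAS cells, given above. With a filter at the 50th percentile, fewer genes were tested (11873, 5 of them members), and 3 members were called for MT-HGF against wild type, where 51.3% of all genes were, and 4 for MT-HGF against RAS, with 33.9% of all genes. Array quality weights gave 8 members for AG1478-treated MT-HGF against wild type, with 63.0% of all genes called, against 42.9% without weights. They also gave 8096 genes in all, against 5158, for RAS against wild type and 3925, against 2615, for AG1478-treated against untreated MT-HGF. Lif gained 2 calls, given above. Counts of called members with 1 array left out ranged over 4 to 6 for RAS against wild type, 4 to 5 for MT-HGF against wild type, 4 to 7 for MT-HGF against RAS, 3 to 4 for AG1478-treated against untreated MT-HGF, while it stayed at 5 against wild type and at 4 against RAS. The lowest count for MT-HGF against RAS came without RAS replicate 2. The cause of these changes was not tested. With a 99th percentile as background, 3 members were above it. Uncalled differences that changed sign with 1 array left out were Tslp in MT-HGF against wild type (-0.0562 to 0.0672, above 0 without wild-type replicate 3 or MT-HGF replicate 1), Lif in MT-HGF against RAS (-0.15 to 0.0185, above 0 without RAS replicate 3) and Tnf in AG1478-treated against untreated MT-HGF cells (-0.0463 to 0.13, below 0 without replicate 3 of the treated cells). Same-numbered arrays of different groups had deviations that correlated between -0.44 and 0.53. Between RAS and MT-HGF arrays these correlations were 0.09 to 0.50, against -0.48 to 0.04 for arrays of unequal number. Between MT-HGF and wild-type arrays they were 0.05 to 0.53, against -0.50 to 0.41. Between RAS and wild-type arrays they were -0.24 to 0.40, against -0.55 to 0.55. With AG1478-treated arrays they lay between -0.44 and 0.22. The main model did not pair the arrays, and whether equal numbers mark pairs was not tested. With the replicate number as a block, the counts were 6, 5, 7, 4, 5 and 4 in the order of the preceding ranges, so it changed no count. Signal near background limits Il19, Il6, Il11, Csf2 and Csf3. Among their calls, that of Il11 in MT-HGF against RAS and that of Csf2 in RAS against wild type were lost under alternatives given above.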

Other observations

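Transcription factor genes known to act on cytokine promoters and regulators of cytokine mRNA stability were also measured. Of 18 tested factor genes 6 were higher and 3 lower in RAS than in wild-type cells, 8 and 5 in MT-HGF than in wild-type cells, and 5 and 2 in AG1478-treated than in untreated MT-HGF cells. Over all genes 32.5%, 40.9% and 16.5% were called in these comparisons. Fos, an AP-1 subunit gene, was 1.67 log2 units higher in MT-HGF than in wild-type cells, where it was not above background on all 3 arrays, and at -1.04 in AG1478-treated against untreated MT-HGF cells (limma adjusted p = 9.00e-12 and 3.57e-08). Fosl1, another AP-1 subunit gene, was at 0.69 and -0.60 in the same comparisons (limma adjusted p = 1.38e-05 and 0.000257). Jun, also an AP-1 subunit gene, was 0.39 higher in AG1478-treated than in untreated MT-HGF cells (limma adjusted p = 0.00429). Rel, for an NF-kappaB subunit, was 0.56 higher with AG1478 than without it (limma adjusted p = 1.61e-05), and Nfkb2 was at -0.67 in MT-HGF against wild-type cells (limma adjusted p = 2.56e-07).

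Of 12 regulators of mRNA decay and stability 2 were higher and 2 lower in RAS than in wild-type cells, 3 and 2 in MT-HGF than in wild-type cells, and 3 and 0 in AG1478-treated than in untreated MT-HGF cells. The shares of all genes called were again 32.5%, 40.9% and 16.5%. Zfp36, whose product binds AU-rich elements and destabilises cytokine mRNAs such as that of Tnf, was 1.04 log2 units higher in RAS than in wild-type cells (limma adjusted p = 2.31e-07) and 0.68 higher in MT-HGF than in wild-type cells (limma adjusted p = 2.25e-05). Zc3h12a, which encodes the RNase Regnase-1 that cleaves Il6 mRNA, was 0.69 higher in MT-HGF than in wild-type cells (limma adjusted p = 1.79e-06) and 0.34 higher in AG1478-treated than in untreated MT-HGF cells (limma adjusted p = 0.00514). Its mean was 7.66 log2 units in RAS cells and 7.69 in wild-type cells.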
